A study of Mus musculus with 7 samples.

Results

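miR-132 and miR-212 are made from neighbouring hairpins of 1 primary transcript. Their products were found by name, as every identifier whose stem is mmu-miR-132 or mmu-miR-212 with any arm, and at the matching mature loci of the 7 libraries. This gave 4 products of 757 miRNA names in the deposited tables: mmu-miR-132, mmu-miR-132*, mmu-miR-212-5p and mmu-miR-212-3p. In the RefSeq names, mmu-miR-132 is the 3p arm of its hairpin and mmu-miR-132* the 5p arm. An arm is the side of the hairpin that a mature miRNA is cut from, and the star marked the arm once held to be the minor one.

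Small RNA was sequenced from the hippocampus, the brain region used for object and place memory, of adult male mice aged 3 to 5 months. NIPP1* mice carry a fragment of nuclear inhibitor of PP1 fused to EGFP under a tetO promoter, switched on by CaMKIIalpha-rtTA2 in forebrain neurons when doxycycline is in the diet, and the controls were littermates. Trained mice met objects in an object recognition task, and non-trained mice met the training chamber alone. Tissue of 6 mice per group was collected 30 min after the session and pooled, so a library is not 1 animal. The sources used here do not say which mice of a group went into which library, so the p-values below measure the spread between libraries, which may be technical. The labels assign library 1 to non-trained controls and library 2 to non-trained NIPP1* mice. They assign libraries 3, 4 and 5 to trained controls and libraries 6 and 7 to trained NIPP1* mice.

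Levels are given as RPM, reads per 1000000 miRNA reads of a library. The libraries held between 7285260 and 10017732 miRNA reads. The authors' own group means place the trained libraries the other way from the labels. The means named trained control were matched within 0.0128% by libraries 6 and 7 and only within 15.6% by libraries 3, 4 and 5, and the means named trained NIPP1* were matched within 0.0252% by libraries 3, 4 and 5. The groups below follow the labels, and each result that rests on the genotype of a trained library is also given with the trained groups exchanged. Small RNA does not measure the transgene, so the genotypes could not be checked. In the comparison of all 5 trained with both non-trained libraries no library changes side.

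As background, CREB is a transcription factor that is phosphorylated when neurons are active and binds the cAMP response element (CRE). The primary transcript of miR-212 and miR-132 is among its best-known targets in neurons. PP1 is a phosphatase that removes this phosphate, and NIPP1 holds PP1 inactive in the nucleus, so this locus was of interest both for training and for the transgene. The primary transcript is cut by Drosha and then Dicer, and 1 arm of each duplex is usually kept in Argonaute, where its seed, bases 2 to 8, leads it to target RNAs. miR-132 is known for its role in the growth of dendrites and spines.

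The mature sequences are shown because the seed sorts the 4 products in another way than the hairpin does. Each is written from RefSeq with the seed in capitals, and each was found letter for letter at its locus in NCBI37/mm9.
mmu-miR-132*: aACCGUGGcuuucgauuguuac
mmu-miR-132: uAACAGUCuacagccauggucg
mmu-miR-212-5p: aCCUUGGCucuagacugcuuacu
mmu-miR-212-3p: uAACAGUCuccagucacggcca

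The 3p arms, miR-132 and miR-212-3p, share the seed AACAGUC. Among 1738 mature mouse miRNAs of the RefSeq table they were the only 2 with this seed, and they were alike at 17 of 22 positions counted from the 5′ end. The first position at which they differ is 10, past the seed. The 5p arms were alike at 9 of 22 positions and differ from position 2 on. The seed of each 5p arm was found in no other mature miRNA of the table.

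All 4 products lie on the forward strand of chromosome 11. In the GENCODE annotation of NCBI37/mm9, the Mir212 hairpin is at chr11:74986890-74986980 and the Mir132 hairpin at chr11:74987167-74987267, with 186 bases between them. Both hairpins are in the first intron of the lincRNA gene 1700016P03Rik (chr11:74986062-74991135), which has 3 exons, and neither touches an exon. miR-212-5p was read at chr11:74986905-74986927 and miR-212-3p at chr11:74986945-74986966. miR-132* was read at chr11:74987188-74987209 and miR-132 at chr11:74987225-74987246. Smg6 and Hic1, a transcriptional repressor, lie before the host gene.

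The bases before the hairpins are shown because they hold the CRE. The palindromic CRE, TGACGTCA, which reads the same on both strands, was searched from 250 bases before the host gene to the end of Mir132. It occurred 3 times in these 1456 bases, at 110 and 94 bases before Mir212 and at 11 bases before Mir132. The matches did not overlap and are written in capitals, on the forward strand of NCBI37/mm9, in chr11:74986760-74986889 (before Mir212) and in chr11:74987136-74987166 (before Mir132).
Before Mir212: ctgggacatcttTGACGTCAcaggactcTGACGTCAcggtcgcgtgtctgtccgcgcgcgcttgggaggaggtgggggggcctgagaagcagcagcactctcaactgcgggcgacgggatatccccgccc
Before Mir132: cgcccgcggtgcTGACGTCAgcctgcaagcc

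Of the windows of 150 bases directly before 1577 annotated miRNA hairpins, 0.254% held the same letters, 4 hairpins in all. Mir212 and Mir132 were among these 4, together with Mir101a and AC159624.1, and Mir212 was 1 of 2 with the letters more than once. Of 32851 RefSeq promoters of 300 bases (250 before and 50 after the start, GRCm38.p6), 1.79% held them. These matches are letters in a window and no measurement of CREB binding, which was not made in these libraries.

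**Figure D1:**
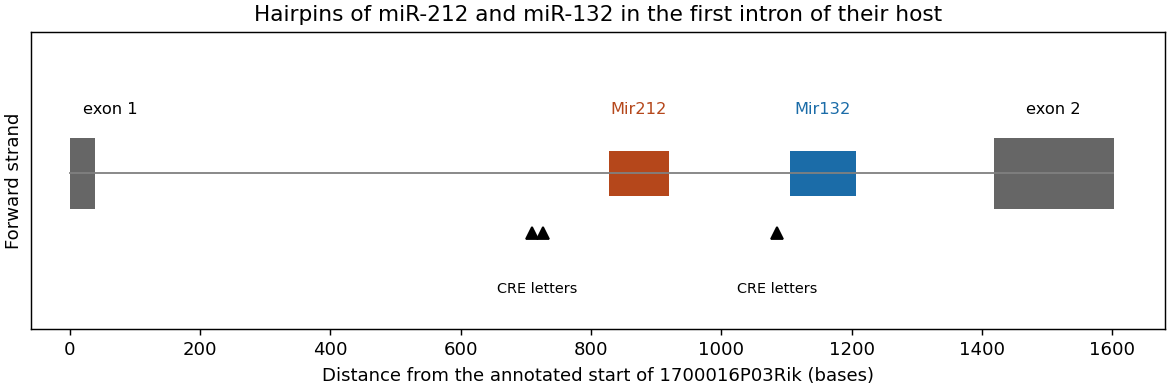
Map of the miR-212 and miR-132 hairpins by distance in bases from the annotated start of the host gene 1700016P03Rik, with the first exons as dark boxes and triangles at the 3 matches of TGACGTCA. Both hairpins lie in the first intron, and the matches stand before Mir212 and directly before Mir132.

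The locus was well expressed in every library. The 4 products together made up 2416 to 3168 RPM, with a median of 2686 RPM, and 69.2% to 73.5% of these reads were miR-132*. Of all 756 mature sequences, miR-132* ranked 54 in mean level, miR-212-5p 117, miR-132 123 and miR-212-3p 176. Reads of different sequences are captured with different efficiency, so this order is one of reads and not of molecules.

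miR-132*, the 5p arm, stood at 1859 RPM in library 1 (non-trained control) and 2063 RPM in library 2 (non-trained NIPP1*). In the trained controls it stood at 2233, 1725 and 1873 RPM, and in the trained NIPP1* libraries at 1707 and 2046 RPM. Both non-trained values lay inside the range of the trained ones, and the highest and the next-lowest value were from the same trained group.

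mmu-miR-132, the arm for which most functions of this locus are described, stood at 256.9 RPM in the non-trained control and 297.6 RPM in the non-trained NIPP1* library. The trained controls gave 366.7, 281.1 and 312 RPM, and the trained NIPP1* libraries 292.5 and 343.9 RPM. All 5 trained libraries were above the non-trained control, and 2 of them were below the non-trained NIPP1* library.

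miR-212-5p stood at 320.4 and 380.5 RPM in libraries 1 and 2, the non-trained ones. It stood at 428.4, 354.7 and 382.5 RPM in the trained controls and at 294.4 and 384.6 RPM in the trained NIPP1* libraries. The groups overlapped, and the lowest value of all was that of a trained library.

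miR-212-3p, which has the seed of miR-132, stood at 92.46 and 115.8 RPM in libraries 1 and 2, the non-trained ones. It stood at 139.4, 130.4 and 118.1 RPM in the trained controls and at 121.8 and 140.1 RPM in the trained NIPP1* libraries. It was the only one of the 4 products whose 5 trained libraries were all above both non-trained libraries, and the same held with TMM and DESeq2 scaling. Of the 476 miRNAs that averaged 10 reads or more, 3.36% had this order, 16 in all, and 39 had the opposite order. With TMM scaling the share was 6.51% and with DESeq2 size factors 6.09%. The gap was narrow: 118.1 RPM rests on 923 reads and 115.8 RPM on 935 reads, a log2 ratio of 0.03 with an exact binomial 95% interval of counting error from -0.11 to 0.16. The summed markers of blood vessels, miR-126-3p, miR-143 and miR-145, moved in the same way, from 13812 to 13910 RPM in the non-trained libraries and from 14507 to 17619 RPM in the trained ones, and their part in this order was not tested.

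**Figure D2:**
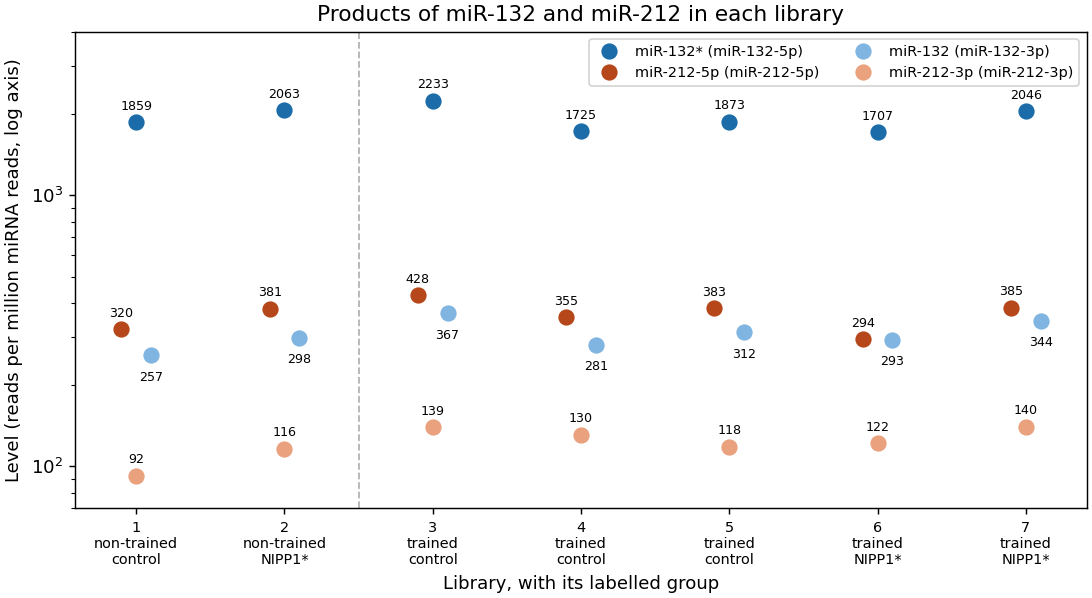
Level of the 4 products in each of the 7 libraries, in RPM on a log axis, with the 2 non-trained libraries left of the dashed line. miR-132* stays between 1707 and 2233 RPM, and miR-212-3p is the product whose trained values, 118.1 to 140.1 RPM, all lie above the non-trained ones.

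The order of the levels was miR-132*, miR-212-5p, miR-132 and miR-212-3p in all 7 libraries. The neighbours miR-212-5p and miR-132 overlapped in range (294.4 to 428.4 and 256.9 to 366.7 RPM). Within a library miR-212-5p was higher in 7 of 7, but in library 6 only by 1.90 RPM or 14 reads. The products next to miR-132 in mean level were miR-376a*, miR-341 and miR-384-3p above it, at 325.3, 325.3 and 316.7 RPM, and miR-708, miR-139-5p and miR-1843-5p below it, at 296.7, 295.7 and 292.8 RPM. The range of miR-132 overlapped that of each of these 6. As a seed family, miR-132 and miR-212-3p summed to 349.4 to 506.1 RPM, of which miR-132 supplied 68.3% to 73.5%.

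Across the 7 libraries miR-132* spread less than the median miRNA, and the other products spread about as much as it. The highest value was 1.31 times the lowest for miR-132*, 1.43 times for miR-132, 1.46 times for miR-212-5p and 1.52 times for miR-212-3p. The SD of log2(RPM + 0.5) was 0.14, 0.17, 0.18 and 0.20 in the same order, beside a median SD of 0.19 over the 319 miRNAs that averaged 100 reads or more. The coefficient of variation was 9.99% for miR-132* and 13.4% for miR-212-3p. Library 3, a trained control, had the highest level of miR-132*, miR-132 and miR-212-5p.

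Most of the reads of the Mir132 hairpin came from the arm marked with the star. The ratio of miR-132* to miR-132 was between 5.84 and 7.24 in the 7 libraries. Among 96 hairpins with a star and an unmarked arm (at least 100 reads in mean for both arms together and at least 10 for each), the star arm had the higher mean in 11, or 11.5%, and was higher in every library in 10. The mean log2 ratio of miR-132* to miR-132, 2.65, ranked 3 of these 96, after miR-140* and miR-879*, while the median of all 96 was -4.62. For miR-212 the 5p arm was 2.42 to 3.47 times the 3p arm, which ranked 19 of 47 hairpins with arms named 5p and 3p, of which 24 had the higher mean in the 5p arm. In both hairpins, then, the 5p arm gave more reads than the arm with the seed AACAGUC.

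**Figure D3:**
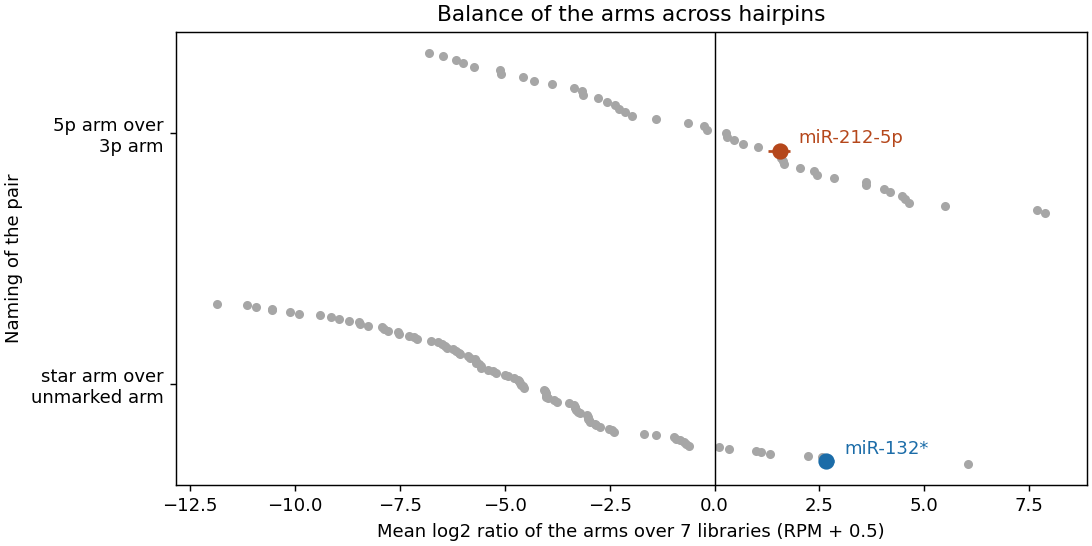
Mean log2 ratio of the arms over the 7 libraries for 96 hairpins named with a star and 47 named 5p and 3p, 1 point per hairpin in order of its ratio. Coloured points are miR-132 (2.65, rank 3 of 96) and miR-212 (1.57, rank 19 of 47), with bars from the lowest to the highest library.

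For miR-132 the balance of the arms varied less than the level of either arm, with an SD of 0.12 for the log2 ratio, and it did not overlap between trained and non-trained libraries. A ratio within a library does not depend on the scaling of that library, nor on which trained group is which genotype. miR-132* was 7.24 and 6.93 times miR-132 in libraries 1 and 2, the non-trained ones. It was 6.09, 6.14 and 6.00 times miR-132 in the trained controls and 5.84 and 5.95 times in the trained NIPP1* libraries. The 2 conditions did not overlap, and the trained ratios lay within a narrow band. Of 143 hairpins with both arms measured, 9 (6.29%), miR-132 included, had all trained ratios below, and 4 (2.80%) had all above.

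On the log2 scale the mean ratio of miR-132* to miR-132 was 2.59 ± 0.03 (SD, n = 5) in the trained and 2.82 (n = 2) in the non-trained libraries, a difference of -0.24 with a two-sided exact permutation p of 0.0952. The two-sided p is taken here as 2 times the smaller one-sided share of the 21 divisions of the libraries, and 0.0952 is the smallest value that this form of the test can give for 5 against 2 libraries, so it cannot pass 0.05. Adjusted over the 4 ratios compared, the permutation p was 0.19. As a share of the reads of both arms, miR-132* was 87.9% and 87.4% in the non-trained libraries and 85.4% to 86.0% in the trained ones. The exact binomial 95% intervals of counting error began at 86.9% or above in the non-trained libraries and ended at 86.5% or below in the trained ones.

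The arms of miR-212 moved in the same direction with a wider spread. miR-212-5p was 3.47 and 3.29 times miR-212-3p in libraries 1 and 2, the non-trained ones, and 2.42 to 3.24 times in the 5 trained libraries. The groups did not overlap, but the highest trained value was close to the lowest non-trained one. The difference of the mean log2 ratios was -0.26, with the same exact permutation p of 0.0952 and adjusted p of 0.19. Of 143 hairpins with both arms measured, 9, or 6.29%, had all trained ratios below all non-trained ones, and both hairpins of this locus were among them. A further 4 had all trained ratios above. The median difference over the 143 was -0.07, and 44 of them moved by more than miR-132 and 39 by more than miR-212 in either direction.

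Between the hairpins the ratios did not separate the conditions. miR-212-3p was 0.36 and 0.39 times miR-132 in the non-trained and 0.38 to 0.46 times in the trained libraries, a difference of 0.13 in mean log2 ratio (two-sided exact permutation p = 0.29, adjusted 0.29). miR-212-5p was 0.17 and 0.18 times miR-132* in the non-trained and 0.17 to 0.21 times in the trained libraries, a difference of 0.11 (two-sided exact permutation p = 0.19, adjusted 0.25).

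**Figure D4:**
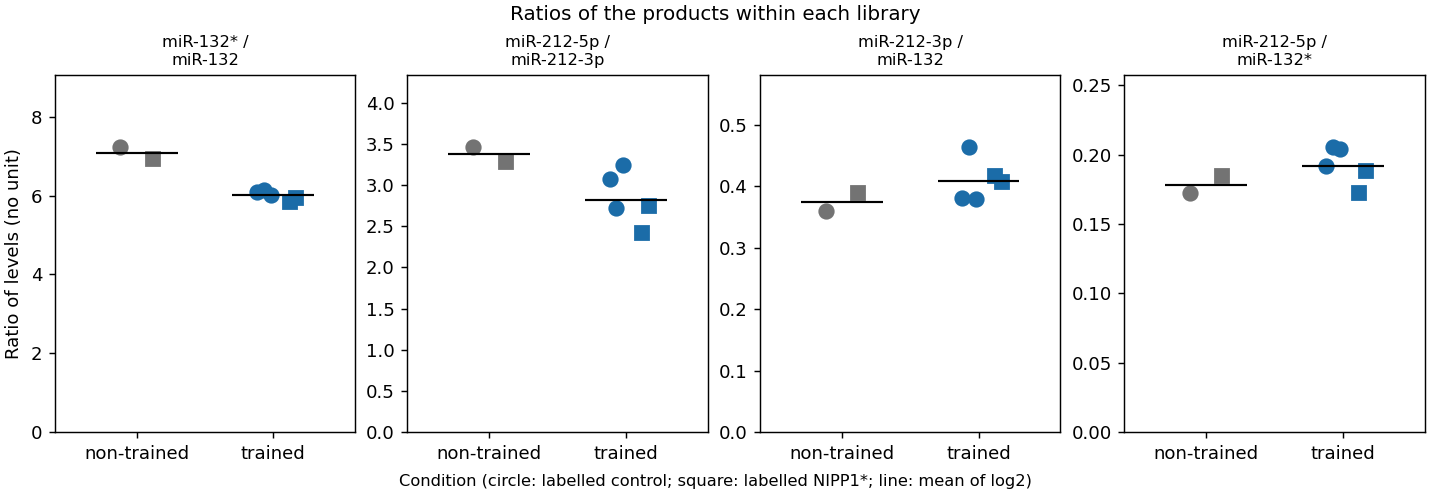
Ratios of the products within each library, with no unit, for non-trained (grey) and trained (blue) libraries, circles for labelled controls, squares for labelled NIPP1* and a line at the mean of the log2 ratios. The ratio of miR-132* to miR-132 is 6.93 and 7.24 in the non-trained and 5.84 to 6.14 in the trained libraries, while the ratios between the hairpins overlap.

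For the levels, the trained libraries were compared with the non-trained ones over both genotypes. These are levels of mature miRNA 30 min after the session, and the primary transcript of the locus was not measured. The 3p arms had the larger positive differences and the 5p arms were near 0, and none of the 4 passed the test. The log2 fold change was 0.33 ± 0.14 (SE) for miR-212-3p and 0.20 ± 0.15 for miR-132. It was 0.05 ± 0.15 for miR-212-5p and -0.04 ± 0.14 for miR-132*. In limma's model of all 7 libraries the adjusted p was 0.873 for both 3p arms and 0.983 for both 5p arms, with n = 5 trained and 2 non-trained libraries. limma called 0 of 476 miRNAs (0%). The 95% interval of miR-132 ran from -0.16 to 0.56 and that of miR-212-3p from -0.01 to 0.66. Leaving out a non-trained library sets all 5 trained libraries, without regard to genotype, against the other non-trained one. Without the non-trained control library the value was 0.16 for miR-212-3p, 0.094 for miR-132, -0.055 for miR-212-5p and -0.11 for miR-132*. Without the non-trained NIPP1* library the values were 0.49, 0.31, 0.19 and 0.037 in this order. The sign for miR-132* turned with TMM (0.01) and with DESeq2 size factors (0.02). With these scalings miR-212-5p was at 0.10 and 0.12.

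In the labelled controls alone, 3 trained libraries were set against 1 non-trained library. All 4 products had a positive difference, and 0 of the 4 passed the test. miR-212-3p differed by 0.48 ± 0.19 on the log2 scale (95% interval 0.02 to 0.94, limma adjusted p = 0.666), rank 23 of 476 by p. miR-132 differed by 0.31 ± 0.21 (adjusted p = 0.666), miR-212-5p by 0.27 ± 0.21 (adjusted p = 0.702) and miR-132* by 0.06 ± 0.19 (adjusted p = 0.938). limma called 0% of the 476 here too. Among limma's alternatives, the interval of miR-212-3p took in 0 with only the groups compared and without library 4, 6 or 7. It left out 0 with TMM or DESeq2 size factors, with the trained groups exchanged, and without library 2, 3 or 5. The value itself lay between 0.42 and 0.58 over all alternatives. With the trained groups exchanged, the differences were 0.50 for miR-212-3p, 0.30 for miR-132, 0.07 for miR-212-5p and 0.01 for miR-132*. With the labelled groups, miR-132* was at -0.049 without library 3, 0.15 with TMM and 0.16 in DESeq2. miR-132 was at 0.20 without library 3.

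In the labelled NIPP1* mice, 2 trained libraries were set against 1. The 3p arms had small positive and the 5p arms small negative differences, and 0 lay inside each 95% interval. They were 0.17 ± 0.21 for miR-212-3p, 0.09 ± 0.22 for miR-132, -0.18 ± 0.22 for miR-212-5p and -0.14 ± 0.20 for miR-132* (limma, lowest adjusted p = 0.99), and 0% of all miRNAs were called. With the trained groups exchanged, the differences were 0.16 for miR-212-3p, 0.096 for miR-132, 0.026 for miR-212-5p and -0.094 for miR-132*. Without library 7 they were 0.073, -0.025, -0.37 and -0.27 in this order, and without library 6 they were 0.27, 0.21, 0.015 and -0.012.

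The difference of the training effect between the genotypes, NIPP1* minus control, was tested directly. It was negative for all 4 products: -0.31 ± 0.28 for miR-212-3p, -0.22 ± 0.31 for miR-132, -0.45 ± 0.31 for miR-212-5p and -0.20 ± 0.28 for miR-132*. With the trained groups exchanged it was -0.34 for miR-212-3p, -0.21 for miR-132, -0.045 for miR-212-5p and -0.10 for miR-132*. Without library 6, a trained NIPP1* library, it was -0.20, -0.099, -0.26 and -0.068 in the same order, and without library 7, the other one, -0.41, -0.33, -0.64 and -0.33. The lowest adjusted p in limma was 0.796 with the labelled groups, and 0% of all miRNAs were called. The intervals reached from -1.18 to 0.51 over the 4 products, so a difference of this size could not be told from 0 here. The 4 values share their libraries and are not 4 independent signs. Library 1, the only non-trained control, also enters the training effect in controls and the genotype comparison without training. These results are therefore not independent of each other. Library 1 had the lowest miR-132 and miR-212-3p of all libraries, at 256.9 and 92.46 RPM.

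Among trained mice no product passed the test between the labelled NIPP1* and control libraries. miR-132 was 319.9 ± 43.3 RPM (SD, n = 3) in the trained controls and 318.2 ± 36.3 RPM (SD, n = 2) in the trained NIPP1* libraries, a log2 fold change of -0.004 ± 0.17. miR-212-3p was 129.3 ± 10.7 and 131.0 ± 12.9 RPM, a log2 fold change of 0.02 ± 0.15. miR-132* differed by -0.05 ± 0.15 and miR-212-5p by -0.20 ± 0.17, and the value of miR-212-5p was -0.010 without library 6 and -0.40 without library 7. limma's adjusted p was at least 0.73 for each, and 0% of all miRNAs were called. The 95% interval of miR-132 ran from -0.40 to 0.39, so larger differences are outside it in either direction. Exchanging the trained groups reverses the sign of each value by construction. With TMM or DESeq2 scaling miR-212-3p was at -0.06 and -0.03.

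**Figure D5:**
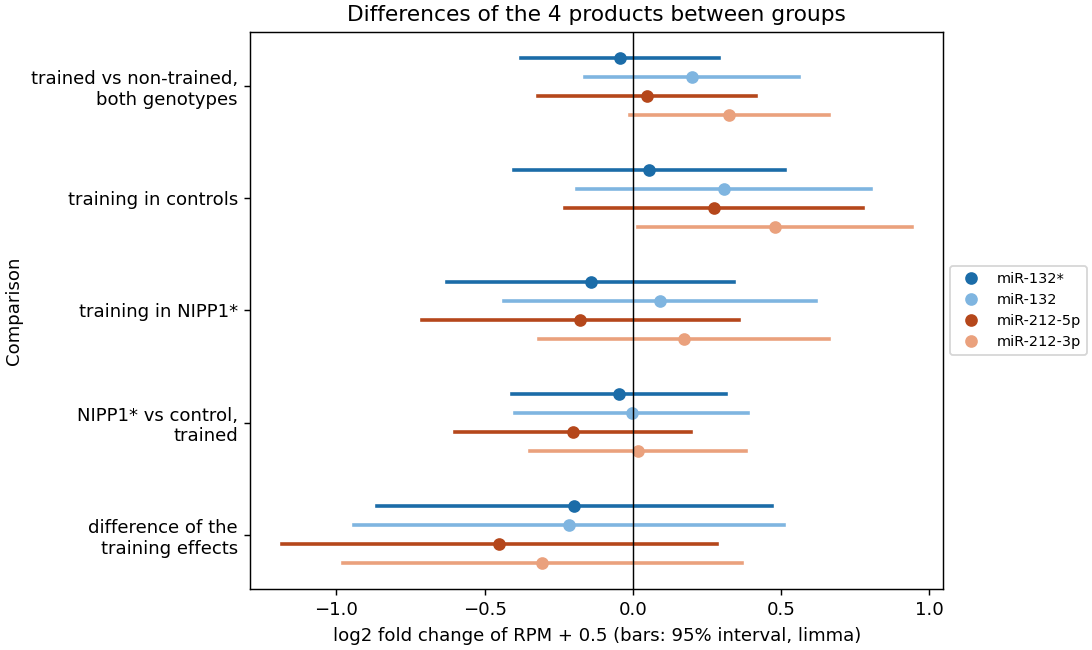
log2 fold change of RPM + 0.5 for the 4 products in the 5 tested comparisons, as points with 95% intervals from limma's model of all 7 libraries. The interval of miR-212-3p for training in controls, 0.02 to 0.94, is the one that leaves out 0 in this model, though not without library 4, 6 or 7, and no product passes after adjustment.

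Without training, 1 NIPP1* library was set against 1 control library, which has no replicate check. Each product was higher in the NIPP1* library, with log2 ratios of 0.15 for miR-132*, 0.21 for miR-132, 0.25 for miR-212-5p and 0.32 for miR-212-3p. The exact 95% intervals, which cover counting error only, were 0.12 to 0.18, 0.13 to 0.30, 0.17 to 0.32 and 0.19 to 0.46. Between 2 libraries of the same trained group the size of the log2 ratio reached 0.37, 0.38, 0.39 and 0.24 for these products, so only the ratio of miR-212-3p was larger than the largest of the 4 such pairs. None of the 4 reached a log2 ratio of 1, which 0.94% of the 319 miRNAs that averaged 100 reads or more did. In size, the ratio of miR-212-3p was above that of 80.3% of these miRNAs and the ratio of miR-132* above that of 49.5%.

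Other miRNAs known to respond to activity or to act at synapses were set beside the locus, as a list of 20. In the comparison of trained with non-trained libraries 0 of the 20 rose and 0 fell by limma, beside 0% of all miRNAs. Their median log2 fold change was -0.11, that of all 476 was -0.05 and that of the 4 products was 0.12. The highest values in the list were 0.21 for miR-191 and 0.15 for miR-181a, and the lowest were -0.28 for miR-381 and -0.27 for miR-182. miR-182 and miR-183, 2 members of a cluster studied in the same mice, had a wide spread, with an SD of 1.53 on the log2 scale for each, beside 0.17 for miR-132.

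Across the 7 libraries the products of the locus varied partly together. Pearson's r of log2(RPM + 0.5) was 0.83 between miR-132* and miR-212-5p and 0.81 between miR-132 and miR-212-3p, and Spearman's rho was 0.86 and 0.64. It was 0.73 between the arms of miR-132 and 0.55 between the arms of miR-212. The lowest was 0.33, between miR-132* and miR-212-3p. Without the 2 libraries farthest from the median of miR-132, r between miR-132 and miR-212-3p was 0.49. The points are 7 libraries that share their scaling, and r is given as a description.

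Of the miRNAs that averaged 100 reads or more, those most like miR-132 over the 7 libraries were miR-15b and miR-299* (r = 0.82 for both), then miR-212-3p (0.81), miR-212-5p (0.76) and miR-26a (0.75). The products of its own locus were thus 2 of the 5 nearest. The least alike were miR-134 (r = -0.93), miR-382 (-0.83), miR-200b (-0.81), miR-200a (-0.76) and miR-351 (-0.71). miR-134, a brain miRNA that acts on dendritic spines, differed by -0.16 ± 0.14 on the log2 scale between trained and non-trained libraries (limma adjusted p = 0.92).

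Markers of neurons, which the tissue label calls for, were abundant. The neuronal miR-124 and miR-128 summed to 58045 to 75577 RPM in the 7 libraries. Markers of other cells were present too and none was at 0. The oligodendrocyte miR-219-3p and miR-338-3p summed to 4346 to 5396 RPM in the non-trained and 3212 to 4982 RPM in the trained libraries. The choroid plexus miR-204, miR-211 and miR-448-3p summed to 691.9 to 911.1 RPM in the non-trained and 417.9 to 1346 RPM in the trained ones. The markers of microglia and leukocytes (2 of 2 found) summed to 407.8 to 583.3 RPM and those of red blood cells (2 of 2) to 61.5 to 250.2 RPM over all libraries. In pooled tissue, fewer cells of a type and less RNA per cell cannot be told apart, and the part of these cells in the values above was not tested.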

How the data were processed

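For each mature miRNA locus (NCBI37/mm9), the authors deposited its percent of the miRNA reads of a library. They kept inserts of 19 to 26 nt and mapped them with bowtie through ncPRO-seq. The submitters' processing notes name CASAVA 1.7.0, Bowtie and bedtools. The signal in the deposited tables of comparisons is the authors' group mean of reads divided by size factors. Their fold changes and p-values were not used, nor were 2 columns of values per library.

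Percentages were written as RPM, and 806 loci gave 756 sequences, of which 714 were matched to a name in the tables by name and reads and 14 by reads alone. Low values step by 1 read, and these steps gave back whole reads. Of the low values 100% came out whole within 0.1 read, both in the locus files and in the single-library columns. Tables and locus files were joined by these reads and names.

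limma with a trend was run on log2(RPM + 0.5) for the 476 miRNAs that averaged 10 reads or more, over all 7 libraries and 4 group means, with a Benjamini-Hochberg adjusted p under 0.05. The pseudocount makes the fold changes of rare miRNAs too small. Since 2 groups have 1 library, their spread is taken from the trained groups. edgeR and DESeq2 on recovered reads, TMM and size factor scaling, pseudocounts of 0.1 and 1, count minimums of 0 and 100, models of fewer groups, exchanged trained groups and leaving out each library were the alternatives. Permutation tests of ratios enumerated all 21 divisions of the libraries and doubled the smaller one-sided share. Read intervals are exact 95% binomial intervals and cover counting error only, as PCR copies are not independent.

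The text names every product of miR-132 and miR-212, the 3 miRNAs next above and below miR-132 in level, the 5 most and least like it, those with its seed, and 2 highest and 2 lowest of the activity list. The members and lists were chosen with earlier results of these data known. Analyses used pysam 0.24.0, scipy 1.17.1 and Python 3.11.15, and DESeq2 1.42.0, edgeR 4.0.16 and limma 3.58.1 in R 4.3.3.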

Additional observations from a re-analysis of the deposited data

How the results depend on the processing

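In 320 fits of the 4 products under the alternatives, 0 reached an adjusted p under 0.05, and the lowest adjusted p was 0.211. Over all miRNAs limma and edgeR called 0 in each of the 5 tested comparisons, with 28, 34, 21, 16 and 37 at an unadjusted p under 0.05 by limma (training in controls, genotype after training, training in NIPP1*, trained against non-trained, difference of the training effects), and DESeq2 called 1, 1, 2, 1 and 2. Directions near 0 turned. For the genotype after training, miR-212-3p (0.02) was at -0.056 with TMM, -0.034 with DESeq2 size factors, -0.055 in edgeR and -0.032 in DESeq2. Exchanging the trained groups reverses this comparison by construction, so its sign changes say nothing of stability. It gave 0.048 for miR-132*, 0.20 for miR-212-5p, 0.0039 for miR-132 and -0.018 for miR-212-3p. For training in NIPP1*, the exchange gave 0.026 for miR-212-5p. For trained against non-trained, miR-132* (-0.04) was at 0.013 with TMM, 0.024 with DESeq2 size factors, 0.020 in edgeR and 0.030 in DESeq2. Leaving out 1 library gave -0.049 to 0.14 for miR-132* in the training of controls. For the genotype after training it gave -0.18 to 0.082 for miR-132*, -0.40 to -0.010 for miR-212-5p, -0.12 to 0.11 for miR-132 and -0.083 to 0.12 for miR-212-3p. For training in NIPP1* it gave -0.37 to 0.015 for miR-212-5p, -0.025 to 0.21 for miR-132, 0.073 to 0.27 for miR-212-3p and -0.27 to -0.012 for miR-132*. For trained against non-trained it gave -0.11 to 0.037 for miR-132* and -0.055 to 0.19 for miR-212-5p. Apart from the exchange in the genotype comparison, the cause was not tested. The ratio of the arms kept its direction without each library, at -0.27 to -0.21 for miR-132 and -0.31 to -0.20 for miR-212. In the non-trained libraries, 12 miRNAs passed a log2 ratio of 1 at a mean of 10 reads, against 3 at 100, where low counts are left out. The precision is limited by the 2 non-trained libraries and, for miR-212-3p with 822 to 1403 reads in a library, also by counting. With TMM the log2 fold changes of trained against non-trained were higher for each of the 4 products, at 0.38 for miR-212-3p and 0.26 for miR-132.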

Other observations

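The miRNAs most and least like the other products of the locus over the 7 libraries were looked up after the values were seen and are given as a description, among 315 miRNAs outside the locus that averaged 100 reads or more. miR-212-3p was most like miR-361 (r = 0.96, rho = 0.89) and miR-365 (r = 0.90, rho = 0.89). miR-132* was most like let-7g* (r = 0.93, rho = 0.96) and least like miR-200a (r = -0.96, rho = -0.96) and miR-200b (r = -0.94, rho = -0.86), which are known as epithelial miRNAs and stood at means of 129.3 and 72.3 RPM. miR-212-5p was least like miR-338-5p (r = -0.93) and miR-206 (r = -0.90), of which the first is known from oligodendrocytes. Some were shared with miR-132, for which r was 0.71 with miR-361, 0.70 with let-7g*, -0.76 with miR-200a and -0.81 with miR-200b.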
